A study of Mus musculus with 4 samples.

Results

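The genes described are 10 axon guidance genes of the Slit, Robo and netrin systems, chosen by name from 21887 protein-coding genes: the receptor genes Robo1, Robo2, Robo3, Dcc, Unc5c and Unc5d and the ligand genes Slit1, Slit2, Slit3 and Ntn1. Their chromatin was measured by ChIP-seq, in which DNA bound by a protein is pulled down with an antibody and sequenced. There were 3 libraries made with an antibody against TIMELESS and 1 input library, which is chromatin with no immunoprecipitation, all from the hippocampus of adult C57BL/6N mice with no treatment named. TIMELESS is a clock-related protein that also travels with replication forks. The labels do not say that the libraries came from separate animals, so their spread may be technical, and peak lists hold no expression values against which the tissue could be checked.

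Slit proteins are secreted guidance cues that bind Robo receptors on growing axons and mostly repel them, as at the midline of the nervous system. Netrin-1, the product of Ntn1, attracts axons through the receptor DCC and repels them where receptors of the UNC5 family take part. In the adult brain several of these proteins are also found at synapses.

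Before any result, the libraries differed in ways that touch all of them. After duplicate removal, 8425679, 13572739 and 30454118 tags remained for TIMELESS replicates 1 to 3 and 14669253 for the input, from which came 7454, 24659, 89043 and 306 peaks on the chromosomes used. TIMELESS replicate 3 is so labelled, but its own file header calls it a second input, so the main counts and differences that use it are also given without it. A peak here is a site where the caller found more reads than its background of the same library. A shared region is a merged site with peaks of at least 2 TIMELESS libraries and no input peak, and a gene's window is its body and 3 kb on either side. All coordinates are mm10.

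No peak of any library lay over a listed start of these genes. RefSeq promoter windows of GRCm38.p6, the same build, were found for 6 of the 10 genes, with 8 start sites, and each window spans 250 bases before to 50 after a start. The only listed start of Robo1, 72663149, lies inside its gene body, which begins at 72027518, so that end of Robo1 had no window. None of the 8 windows met a peak of a TIMELESS library or of the input. Over all 32851 such windows, 0.0365%, 0.107% and 0.457% met a peak of replicates 1, 2 and 3, so an empty window is the usual case. The distance from a start to the nearest replicate 3 peak ranged from 3.52 kb at Robo3 to 74.5 kb at Slit3. The 250 bases before the 3 listed starts of Robo2 and before the start of Slit3 are shown because they are the starts of the gene with the most shared regions and of the longest ligand gene, which had none. Capitals mark the E-box CACGTG, the motif bound by the clock factors CLOCK and BMAL1, which reads the same on both strands.
Robo2, first start, chr16:75447294-75447543, minus strand: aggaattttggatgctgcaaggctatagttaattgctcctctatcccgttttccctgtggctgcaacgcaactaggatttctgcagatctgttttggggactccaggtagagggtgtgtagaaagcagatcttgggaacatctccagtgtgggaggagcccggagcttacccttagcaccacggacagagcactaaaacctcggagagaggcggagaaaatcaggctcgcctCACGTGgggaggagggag
Robo2, second start, chr16:75092771-75093020, minus strand: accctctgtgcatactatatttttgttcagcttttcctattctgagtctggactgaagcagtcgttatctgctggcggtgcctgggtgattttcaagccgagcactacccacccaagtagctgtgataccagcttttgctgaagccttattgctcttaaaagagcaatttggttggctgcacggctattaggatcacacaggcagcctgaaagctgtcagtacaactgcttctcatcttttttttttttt
Robo2, last start, chr16:74411826-74412075, minus strand: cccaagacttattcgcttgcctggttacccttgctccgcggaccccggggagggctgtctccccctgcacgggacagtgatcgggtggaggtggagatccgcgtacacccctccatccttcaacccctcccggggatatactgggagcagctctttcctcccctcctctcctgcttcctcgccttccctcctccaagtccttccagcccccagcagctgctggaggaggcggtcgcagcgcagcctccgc
Slit3, chr11:35121206-35121455, plus strand: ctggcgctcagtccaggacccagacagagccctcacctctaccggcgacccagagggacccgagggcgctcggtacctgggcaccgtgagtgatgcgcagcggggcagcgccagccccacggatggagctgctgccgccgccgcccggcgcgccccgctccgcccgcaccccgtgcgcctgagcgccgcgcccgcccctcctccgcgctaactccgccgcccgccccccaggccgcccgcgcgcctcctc
The E-box stood in 1 of the 8 windows, that of the first Robo2 start, and in 7.15% of all windows. The GC content of these 250 bases was 53.2%, 44.8% and 65.6% at the Robo2 starts and 78.8% at Slit3.

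Among the Robo genes, Robo2 held 10 shared regions, Robo1 held 2 and Robo3 none. Robo2 spans 1555.5 kb of chromosome 16 (73891976 to 75447443) and had 6, 15 and 47 peaks in replicates 1, 2 and 3, or 0.384, 0.961 and 3.01 peaks per 100 kb. Set against the density of the same library over the genome, which takes out most of the effect of depth, these were ratios of 1.37, 1.04 and 0.900, a mean of 1.10 ± 0.243 (SD, n = 3). The 3 libraries therefore lay on both sides of their genome densities. All 6 peaks of replicate 1 in Robo2 lay in shared regions, as did 10 of 15 of replicate 2 and 7 of 47 of replicate 3.

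Robo2 was the only one of the 10 genes with regions of all 3 TIMELESS libraries, of which it held 2. One, at 75291781 to 75292298, carried deposited folds of 5.24 (replicate 1), 4.45 (replicate 2) and 4.39 (replicate 3), which average 4.69 ± 0.476 (SD, n = 3), and summit pileups of 11, 12 and 22. The other, at 74361811 to 74362506, had lower folds of 3.85, 3.58 and 2.41, a mean of 3.28 ± 0.765, with pileups of 12, 15 and 26. It lay 49.7 kb from the last of the listed Robo2 starts, the shortest distance to a listed start among the shared regions of Robo1, Robo2 and Unc5c. Fold compares the pileup with the background of the same library, and pileup is raw coverage that grows with depth.

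The other Robo2 regions were met by 2 libraries. The highest mean fold was at 74671860 to 74672391, with 4.94 in replicate 1 and 6.16 in replicate 2. Regions at 74553589 to 74554296 and 74554312 to 74554693 were separated by 15 bp and had folds of 4.15 in replicate 2 at both and of 3.02 and 3.24 in replicate 3. The regions were spread over the gene, with 3, 4 and 3 in its 3 equal parts counted from the lower coordinate. The peaks of replicate 3 were less even, with 13, 10 and 24.

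Robo1 spans 1019.97 kb (72027518 to 73047491), 844.5 kb from Robo2 on chromosome 16 with no protein-coding gene between them. It had 1, 11 and 25 peaks in replicates 1, 2 and 3, ratios of 0.348, 1.16 and 0.728 to the genome density. Its shared region at 72219139 to 72219459 had folds of 6.16 in replicate 2 and 4.59 in replicate 3, and that at 72597375 to 72598167 had 4.44 in replicate 1 and 4.27 in replicate 2. The peak with the largest fold in the gene, 8.98 in replicate 3 at 72084397 to 72084780, met no peak of another library. Robo3, which in the mouse acts in midline crossing and is the short member at 17.4 kb (chromosome 9, 37416045 to 37433436), had 0 peaks in every library.

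Dcc, Unc5c and Unc5d, the netrin receptor genes among the 10, each held shared regions, none of them of all 3 libraries. Other netrin receptor genes are named here after their values were seen. Unc5a, Unc5b and Neo1 held 0 shared regions, and Dscam held 3, of which 2 were of all 3 libraries. Their lengths differ. Unc5a and Unc5b are under 100 kb, where 5.57% of genes held a shared region. Neo1 is 161.9 kb long, in a class where 40.2% did. Dscam is 583.7 kb long, in a class where 89.9% did and 57.7% held a region of all 3 libraries. Dcc spans 1097.6 kb of chromosome 18 (71253613 to 72351228) and had 1, 6 and 19 peaks in replicates 1, 2 and 3. Its ratios to the genome density were 0.324, 0.587 and 0.515, a mean of 0.475 ± 0.136 (SD, n = 3), so it lay below the genome in all 3 libraries. One shared region, at 71291511 to 71292089, had a fold of 5.61 in replicate 1 and of 6.50 in replicate 2. The other, at 71892891 to 71893701, had 4.24 in replicate 2 and 5.54 in replicate 3.

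Unc5c spans 369.4 kb of chromosome 3 (141465564 to 141834924) and had 1, 2 and 10 peaks in replicates 1, 2 and 3. Between 141764422 and 141764876 lay a region with folds of 6.01 and 7.32 and pileups of 16 and 29 in replicates 1 and 2. Replicate 3 had no peak in it, but had one that ended nearby at 141763883. Another, at 141608000 to 141608537, had a fold of 4.50 in replicate 2 and of 3.33 in replicate 3. Unc5d spans 572.96 kb of chromosome 8 (28646717 to 29219671) and had 0, 8 and 18 peaks. Its 3 shared regions were all of replicates 2 and 3. That at 28679015 to 28679535 held the largest fold of any peak in the 10 genes, 11.3 in replicate 3, against 4.79 in replicate 2. The regions at 28905528 to 28906470 and 29195218 to 29195536 had folds of 3.42 and 4.50 in replicate 2 and 3.34 and 3.13 in replicate 3.

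**Figure D1:**
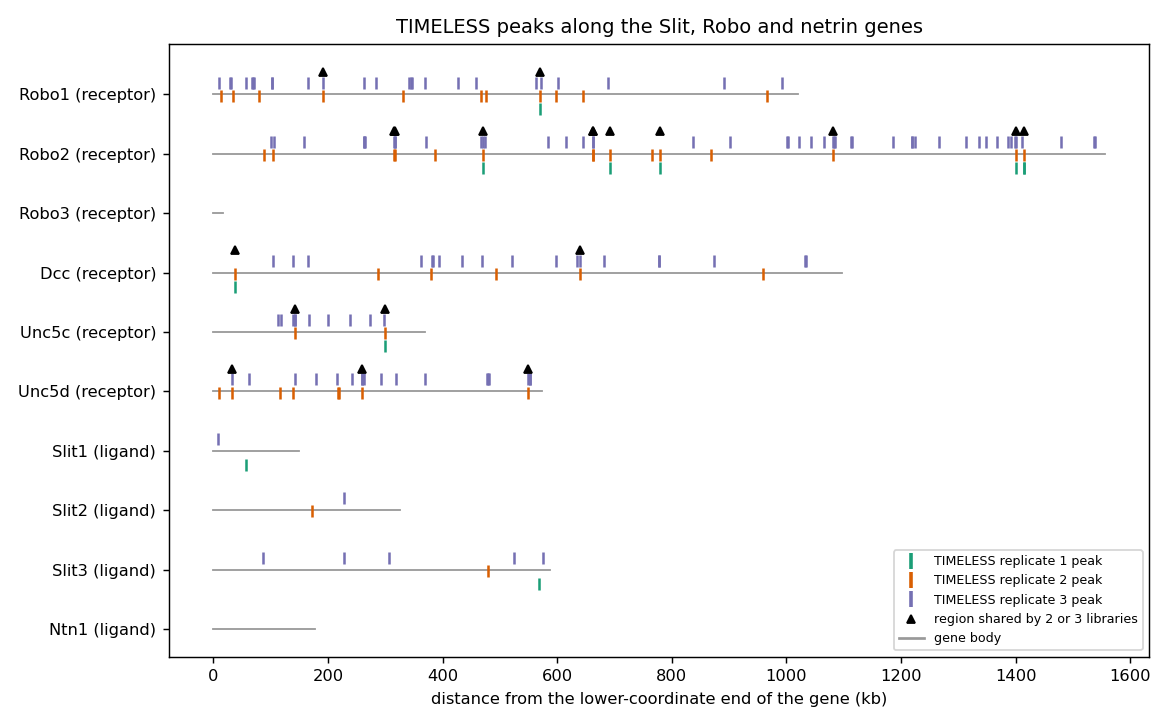
Peaks of TIMELESS replicates 1, 2 and 3 (coloured ticks) along each gene body (grey line), by distance in kb from the end with the lower coordinate; black triangles mark the 19 shared regions. Robo2 carries 10 of them and the ligand genes at the bottom carry 0.

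The ligand genes held few peaks and no shared region. Slit3, at 587.1 kb of chromosome 11 (35121456 to 35708507), had 1, 1 and 5 peaks in replicates 1, 2 and 3, and no 2 of them overlapped. Slit2, at 326.4 kb of chromosome 5 (47981291 to 48307735), had 0, 1 and 1. The Slit2 peak of replicate 3, at 48209239 to 48209713, had a pileup of 54 and a fold of 10.5, the second largest fold in the 10 genes, and replicates 1 and 2 had no peak there. Slit1, at 149.5 kb of chromosome 19 (41597824 to 41747275), had 1, 0 and 1. Ntn1, at 177.5 kb of chromosome 11 (68209364 to 68386826), had 0 in every library. A peak of replicate 1 lay in 6 of the 10 genes, of replicate 2 in 7 and of replicate 3 in 8, against 7.75%, 17.3% and 30.2% of all protein-coding genes. All members but Robo3 are of 100 kb or more, and long genes hold a peak more often. Of 2202 genes of 100 to 500 kb, 691, 1344 and 1882 held a peak of replicates 1, 2 and 3. Of 227 genes of 500 kb and over, 188 held one of replicate 1. The counts of that class for replicates 2 and 3 are not given here. In replicate 1 the members of that class with a peak were Robo1, Robo2, Dcc and Slit3, but not Unc5d. Of the members of 100 to 500 kb, Unc5c and Slit1 held one, but Slit2 and Ntn1 did not. The input had 0 peaks in all 10 windows, against 0.434% of genes with one. Over the genome it had 0.0115 peaks per 100 kb, so that few would be called in 5.93 Mb at its own rate.

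The receptors had more peaks per 100 kb than the ligands in each TIMELESS library, but in replicate 1 by little. In replicate 1 the density was 0.193 in the receptors (9 peaks in 4.67 Mb) and 0.158 in the ligands (2 peaks in 1.26 Mb), a ratio of 1.22 with a 95% counting interval of 0.252 to 11.6. In replicate 2 it was 0.900 (42 peaks) and 0.158 (2 peaks), a ratio of 5.69 (1.48 to 48.5). In replicate 3 it was 2.55 (119 peaks) and 0.554 (7 peaks), a ratio of 4.60 (2.17 to 11.7). The interval held a ratio of 1 in replicate 1 and not in the other libraries. These exact intervals cover counting error only and treat peaks as independent, which neighbouring peaks are not. The roles also differ in length, with 4 of 6 receptors and 1 of 4 ligands of 500 kb and over. All protein-coding genes of that length had 0.256, 0.800 and 3.38 peaks per 100 kb in replicates 1, 2 and 3. Those of 100 to 500 kb had 0.219, 0.690 and 2.31. The part of length in the ratios was not tested.

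The mean difference was 0.924 ± 0.993 peaks per 100 kb (SD, n = 3), receptors minus ligands, higher in 3 of 3 libraries. An exact two-sided permutation test over the libraries gave p = 0.25, the smallest that 3 libraries allow, so the design cannot reach 0.05. The spread was larger than the mean difference. Relative to the genome density of each library, the receptors were at 0.688, 0.971 and 0.762 and the ligands at 0.565, 0.171 and 0.165. That difference was 0.507 ± 0.347 (SD, n = 3), also with exact permutation p = 0.25, and it averaged 0.462 over replicates 1 and 2. Without replicate 3, the library named an input in its header, the mean difference in peaks per 100 kb was 0.388. In replicate 1 the sign turned, to -0.0616 without Robo2 and to -0.0632 with each gene weighted equally, and replicates 2 and 3 kept receptors higher in both.

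**Figure D2:**
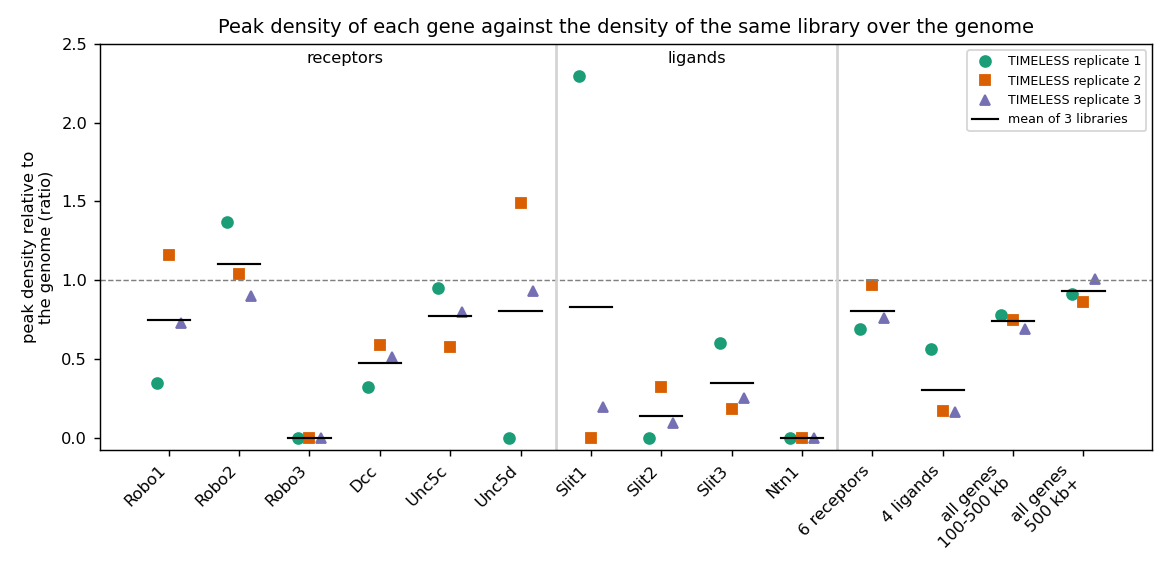
Peaks per 100 kb of each gene window divided by the peaks per 100 kb of the same library over the genome (vertical axis, ratio); points are the 3 TIMELESS libraries, the black line their mean, and the dashed line the genome density. Slit1 stands high in replicate 1 through 1 peak; the ligands together average 0.300 and the receptors 0.807.

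By shared regions the contrast was 19 in the receptors, 0.407 per 100 kb with a 95% exact Poisson interval of 0.245 to 0.636 that covers counting error only, and 0 in the ligands. The receptor value lay close to the 0.392 of all protein-coding genes of 500 kb and over and to the 0.449 of the genome. The 0 of the ligands stands beside 0.325 in genes of 100 to 500 kb, the class of Slit1, Slit2 and Ntn1. For Slit3, of 500 kb and over, the class value is the 0.392 above. At 100 to 500 kb, 1317 of 2202 genes held 0, and at 500 kb and over 23 of 227 did. No interval was computed for the ligands. Of the 19 regions, 11 were met by replicates 2 and 3, 6 by replicates 1 and 2, and 2 by all 3. Over the genome, 3476 of 11957 shared regions were met by all 3. Without replicate 3, 8 regions were left, 5 in Robo2 and 1 each in Robo1, Dcc and Unc5c, and Unc5d had 0. Without replicate 2, 2 were left, both in Robo2, and without replicate 1, 13. The 8, 2 and 13 regions were 42.1%, 10.5% and 68.4% of the 19. Over the genome, 39.5%, 35.1% and 82.8% of shared regions were left without replicates 3, 2 and 1. The ligands had 0 in each case, which was fixed in advance, since leaving out a library cannot add a shared region where there was none.

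Gene length has to be read beside these counts, since long genes hold more peaks. A shared region lay in 5 of the 10 genes, against 9.92% of all protein-coding genes, and a region of all 3 libraries in 1 of 10, against 4.18%. Within length classes the counts were near or below the background, and classes of 4 and 5 members decide little. At 500 kb and over, 4 of 5 members (Robo1, Robo2, Dcc and Unc5d, but not Slit3) held a shared region, against 89.9% of 227 genes. In that class 1 of 5 held a region of all 3 libraries, against 57.7%. At 100 to 500 kb, 1 of 4 members (Unc5c, but not Slit1, Slit2 or Ntn1) held a shared region, against 40.2% of 2202 genes. With replicate 3 left out, the counts were 3 of 5 against 72.2% and 1 of 4 against 23.0%. Robo3 was the only member under 100 kb, where 5.57% of genes held one, 2.06% held a region of all 3 libraries and 2.79% held one of replicates 1 and 2.

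Robo2 and Slit3 lay toward opposite ends of their length class by shared regions. Of the 227 genes of 500 kb and over, 215 held fewer shared regions than the 10 of Robo2 and 5 held more, though Robo2 is among the longer of them. By density, 187 lay below its 0.640 shared regions per 100 kb and 39 above. Without replicate 3, Robo2 held 5 shared regions, with 220 genes holding fewer and 2 more, and 187 lay below its density of 0.320 per 100 kb and 39 above. By peaks per 100 kb it was nearer the middle, with 174 genes below and 52 above in replicate 1, 148 and 78 in replicate 2, and 99 and 127 in replicate 3. Slit3 was 1 of 23 genes of the class with no shared region, and 1 of 63 without replicate 3. Its density of peaks in replicate 3, 0.843 per 100 kb, had 13 genes below and 213 above, and in replicate 2 the numbers were the same. In replicate 1, 80 lay below and 146 above. Dcc had 53 genes below and 173 above by shared density, and 74 and 152 without replicate 3.

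**Figure D3:**
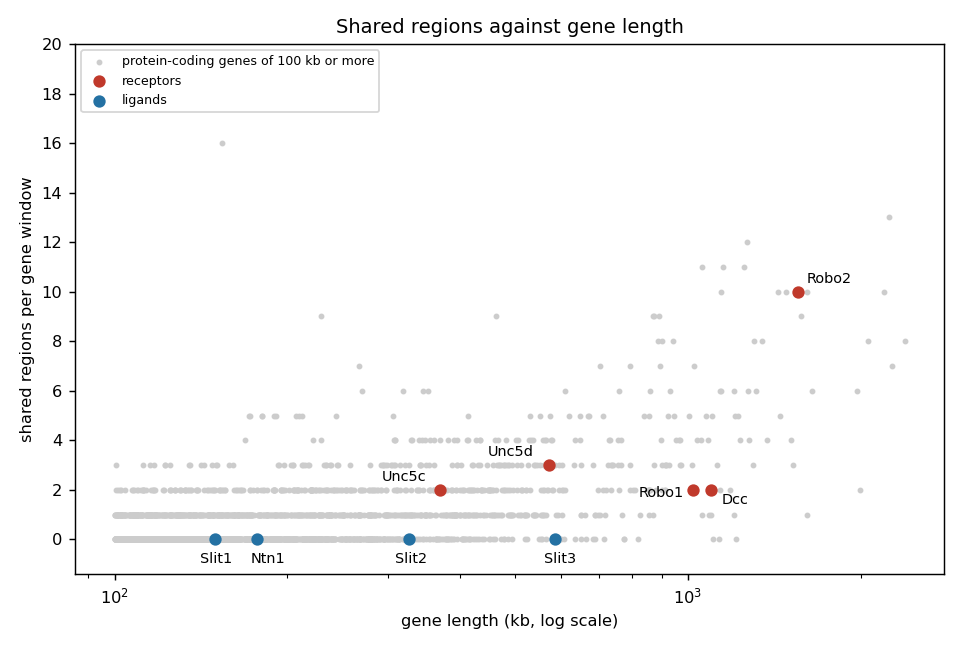
Shared regions in each gene window (vertical axis) against gene length in kb (log scale) for protein-coding genes of 100 kb or more (grey), with the receptors in red and the ligands in blue. Robo2 lies among the genes with most regions and Slit3 is 1 of 23 genes of 500 kb and over with 0; Robo3, at 17.4 kb, is off the plot.

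The surroundings of the ligands were also poorer in peaks than those of the receptors. In the 500 kb on either side of each window, replicate 3 had 4.17 peaks per 100 kb around the receptors and 2.18 around the ligands, replicate 2 had 1.12 and 0.725, and replicate 1 had 0.267 and 0.125. Shared regions stood at 0.533 and 0.25 per 100 kb, and at 0.183 and 0.125 without replicate 3. The flanks of the ligands held 2 to 24 other protein-coding genes (median 10) and those of the receptors 0 to 21 (median 1.5), and the part of gene content in the difference was not tested. Inside the gene, replicate 3 was lower than in the flanks for all 10 genes. Of the 9 members of 100 kb or more, 6, 8 and 9 were lower inside in replicates 1, 2 and 3, against 65.9%, 65.3% and 66.2% of 2409 genes of that length. By shared regions it was 7 of 9, with Robo2 and Unc5c higher inside, against 66.5%. A lower density inside was thus the usual case. Slit2 had 0.301 peaks per 100 kb inside and 4.80 around it, and Dcc had 1.72 and 6.10. In replicate 2 the window was lower for 9 of 10 genes, Unc5d being the exception with 1.38 inside and 1.30 around it. In replicate 1 it was lower for 5 of 6 receptors and 2 of 4 ligands. The flanks of Robo1 and Robo2 overlap between the genes.

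**Figure D4:**
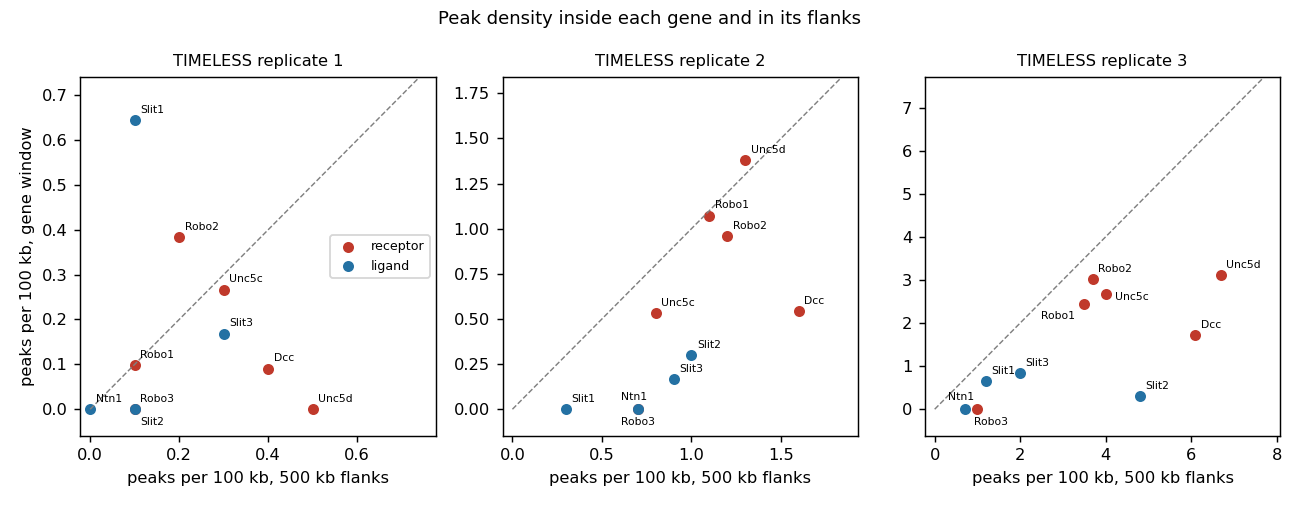
Peaks per 100 kb in the gene window (vertical axis) against the 500 kb flanks on both sides (horizontal axis), 1 panel per TIMELESS library; red points are receptors, blue points ligands, and the dashed line marks equal density. In replicate 3 all 10 genes lie below the line, with Slit2 at 0.301 inside and 4.80 outside.

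By their medians, single peaks in these genes were of similar strength to peaks over the genome. The median pileup was 12, 15 and 24 in replicates 1, 2 and 3, against 13, 15 and 24 over the genome, and the median fold was 4.82, 4.50 and 3.91, against 4.91, 4.41 and 3.63. Receptor and ligand peaks had medians of 12 and 10 in pileup in replicate 1, and of 15 and 15 and of 24 and 24 in replicates 2 and 3, with 2, 2 and 7 ligand peaks behind these values. The share of peaks that lay in shared regions was 81.8% in replicate 1 (9 of 11, 95% exact Clopper-Pearson interval 48.2 to 97.7), against 74.5% over the genome. In replicate 2 it was 43.2% (28.3 to 59.0), against 46.0%, and in replicate 3 it was 11.1% (6.21 to 17.9), against 12.2%. Each genome share lay within the members' interval, which does not show that the shares are equal. These intervals also treat peaks as independent, which neighbouring peaks are not.

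The shared regions of the receptors were mostly of modest strength. Their mean fold over the libraries present ranged from 2.78 to 8.03 with a median of 4.12, against 4.31 over all 11957 shared regions. At -log10 q of at least 5, 3 of 19 were kept (15.8%, 95% exact interval 3.38 to 39.6), against 41.4% over the genome. They were the first region of Robo1, the first of Dcc and the second of Unc5c, counted along the gene. At fold of at least 5, those of Dcc and Unc5c remained, or 10.5% against 20.9% over the genome. Both regions of all 3 libraries in Robo2 were lost at both settings. The exact interval treats regions as independent, though 10 of the 19 lie in Robo2, 2 of them 15 bp apart. None of the 19 regions overlapped another annotated gene, coding or noncoding. Whether they lie in exons or introns was not analysed here.

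**Figure D5:**
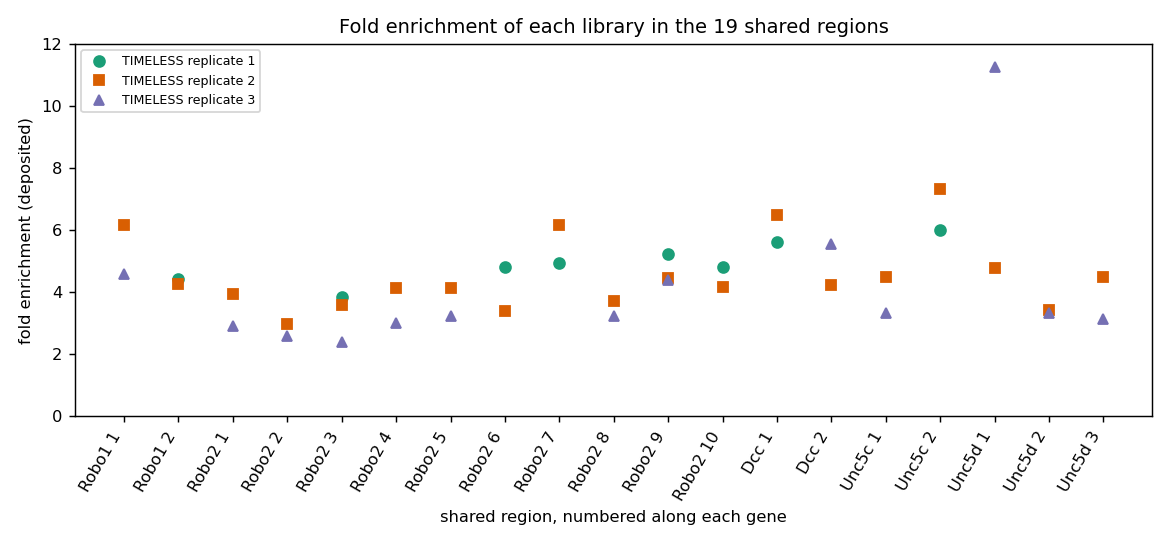
Deposited fold enrichment (vertical axis) of each TIMELESS library with a peak in the 19 shared regions, numbered along each gene. Most points lie between 2.41 and 7.32; the exception is the first Unc5d region, at 11.3 in replicate 3 and 4.79 in replicate 2.

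Other axon guidance genes, listed as semaphorins, ephrins, further netrins, their receptors and intracellular partners, numbered 80, of which 17 (21.2%) met a shared region, against 9.92% of all protein-coding genes. By length, 4 of 4 genes of 500 kb and over held one, 11 of 37 of 100 to 500 kb (29.7% against 40.2% of that class) and 2 of 39 shorter ones (5.13% against 5.57%). By role they were 6 of 31 receptors, 7 of 34 ligands and 4 of 15 intracellular partners, so ligands outside the Slit and netrin-1 genes did hold shared regions. In these genes the order by density was the other way for shared regions, with 0.242 per 100 kb in receptors and 0.364 in ligands. Peaks per 100 kb were 0.223 and 0.312 in replicate 1, 0.558 and 0.651 in replicate 2, and 1.92 and 1.80 in replicate 3, where receptors were higher; these differences were not tested. Regions of all 3 libraries lay in 11 genes (13.8%), against 4.18% of all protein-coding genes. By length they lay in 9 of 37 genes of 100 to 500 kb (24.3% against 17.4%). At 500 kb and over they lay in 2 of 4, against 57.7%, and in shorter genes in 0 of 39, against 2.06%. With these regions ranked by their weakest fold, the first was in the semaphorin gene Sema5b. Its folds were 10.9 (replicate 1), 10.5 (replicate 2) and 10.0 (replicate 3), averaging 10.5 ± 0.468 (SD, n = 3). Sema3d, a secreted semaphorin, followed with 9.61 ± 0.0792, and the ephrin receptor gene Epha3 with 9.62 ± 0.865. Plxna4, a semaphorin receptor subunit, had 6.81 ± 0.537, the ephrin receptor gene Epha6 had 5.88 ± 0.296, and Sema6a had 6.47 ± 1.98. Each of these 6 genes had a larger fold in its weakest library than either Robo2 region of all 3 libraries. They were picked by that same value, so the comparison does not stand for the 11 genes as a set. Of the genes not picked, Ntng1 had 3.44 in its weakest library, replicate 3, below the 4.39 of the stronger Robo2 region. Dscam, Dscaml1, Plxna2 and Sema3e each held a region above that Robo2 value.

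The genes most like Robo2 in peaks per 100 kb over the 3 TIMELESS libraries, among 2428 others of at least 100 kb, were Syne1, Pde4d and Ptprn2. Their distances on the log2 scale, with 0.1 added to each density, were 0.0890, 0.167 and 0.173. Syne1 had 0.373, 0.932 and 3.17 peaks per 100 kb in replicates 1, 2 and 3, Pde4d had 0.382, 0.918 and 3.36, and Ptprn2 had 0.376, 0.877 and 2.76. They held 2, 8 and 2 shared regions. This likeness rests on 3 libraries and is a description.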

How the data were processed

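ChIP-seq peak lists of 3 TIMELESS libraries and 1 input were used. Per the file headers, the authors called peaks with MACS 2.1.2, each library alone with no control, at a q value cutoff of 0.05, with at most 1 tag per position and a background range of 10 kb. Since no input entered the calling, any site where reads pile up can be a peak. The build, mm10, and the tools come from the submitters' processing notes: Bowtie2 2.4, SAMtools 1.14, MACS2 2.1.1 and deepTools 2.0. The deposited values per peak were pileup (signal, raw coverage at the summit), fold enrichment (a ratio to the library's own background), and p and q values as −log10. These peak values are used as the authors computed them.

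Only the autosomes (1 to 19) and the X and Y chromosomes were kept, and overlapping TIMELESS peaks (at least 1 bp) were merged. Regions over input peaks were left out. Gene positions (matched for all 10 members) and promoters (for 6) came from RefSeq tables of GRCm38.p6. Counting was tested on simulated peaks (Python 3.11.15, pandas 2.3.3, scipy 1.17.1). Named genes were the members, up to 6 other axon guidance genes with a region of all 3 libraries, by smallest fold, and the 3 genes nearest to the member with most shared regions. Members, lists and rules were chosen with earlier results of these data known.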

Additional observations from a re-analysis of the deposited data

How the results depend on the processing

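The 5 members and 19 shared regions dropped to 3 and 3 with a −log10 q minimum of 5, to 2 and 2 at fold of at least 5, and to 3 and 3 when each library kept its 7454 strongest peaks. Over all protein-coding genes, the share with a shared region also fell, from 9.92% to 5.57%, 3.73% and 4.44%. At 500 kb and over it fell from 89.9% to 66.5%, 49.8% and 58.1%. The receptor minus ligand density of shared regions fell from 0.407 to 0.0643, 0.0428 and 0.0643 per 100 kb, and the count of members with a region of all 3 libraries from 1 to 0 at all 3 settings. Over the settings that left out 1 TIMELESS replicate, members with a shared region ranged from 1 to 5, their regions from 2 to 13, the density difference of peaks from 0.388 to 1.37, that of shared regions from 0.0428 to 0.278, and other axon guidance genes from 12 to 14, against 17. At equal numbers of peaks, other axon guidance genes with a shared region numbered 11. The share of all protein-coding genes with a shared region was 8.48%, 4.79% and 5.54% without replicates 1, 2 and 3. Without Robo2, a comparison chosen after seeing the data, 9 shared regions and 0 members with a region of all 3 libraries were left. The cause was not tested, apart from the fewer peaks and libraries that these settings use.

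An overlap of at least 0.5 of the shorter peak gave 16 shared regions, and the body alone, the body with 10 kb, and keeping regions over input peaks each left 19. Counts cannot turn negative. Neither could the density difference of shared regions, since the ligands held 0 at each setting. The difference of peak densities could, and its mean over the libraries used stayed positive. Within replicate 1 it was -0.0148 at both stricter thresholds, -0.0616 without Robo2 and -0.0632 with each gene weighted equally. A region of all 3 libraries cannot be had with a replicate left out. Receptor minus ligand differences were taken within each library. Between TIMELESS and input libraries, no paired analysis was possible because the input has 1 library. Kept tags and peak number did not go together in all libraries: the input had 14669253 tags and 306 peaks, and replicate 2 had 13572739 and 24659.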
